A study of Mus musculus with 5 samples.

Results

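AMPA and NMDA receptor subunit genes were followed as a set of 10 across the cell classes of the mouse hippocampus: the AMPA receptor genes Gria1, Gria2, Gria3 and Gria4 and the NMDA receptor genes Grin1, Grin2a, Grin2b, Grin2c, Grin2d and Grin3a. They were chosen by symbol, and all 10 were among the 32285 gene features of every library. The series holds nuclei of 5 libraries, 1 per genotype: wild type, 5xFAD, and 5xFAD mice that are labelled as lacking MAGL in astrocytes, in neurons or globally. 5xFAD is a transgenic mouse line that builds up amyloid, and MAGL, encoded by Mgll, is the main enzyme that breaks down the endocannabinoid 2-arachidonoylglycerol. All 3 knockout libraries carry the 5xFAD transgenes, and the 5xFAD library is the control that they share. Age, sex, the Cre driver and the number of animals in a library are not given in the sources used here.

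Both receptor types are tetrameric channels opened by glutamate. AMPA receptors carry most of the fast excitatory current, and the edited Gria2 subunit makes them almost impermeable to calcium. NMDA receptors need glycine or D-serine besides glutamate, pass calcium and start many forms of synaptic plasticity. Grin1 encodes their obligatory subunit, the Grin2 genes encode the glutamate-binding partners that set the channel's kinetics, and Grin3a encodes a glycine-binding subunit that lowers calcium flow.

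Likely doublets were taken out, which left 3541, 3896, 4502, 3144 and 5236 nuclei for analysis. Runs of 5 values here and below follow the order wild type, 5xFAD, astrocyte MAGL-KO, neuron MAGL-KO and global MAGL-KO, as labelled. Median counts of unique molecular identifiers (UMIs) per nucleus were between 11540 and 14528. The subunit genes took 1.04%, 0.978%, 0.976%, 0.991% and 1.01% of the UMIs of these nuclei. Nuclei of both sexes were present in each library: Xist marked 59.4%, 41.9%, 60.4%, 83.4% and 60.2% of the nuclei whose sex could be called. The mix of sexes was thus most unlike between 5xFAD and the library labelled neuron MAGL-KO. The 5xFAD library, which enters every contrast below, had the lowest share, so the contrasts also differ in the mix of sexes. Pairs of libraries shared between 29 and 63 cell barcodes.

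Nuclei were sorted into 17 classes by clustering, with the 10 genes left out of the genes used to cluster, and 339 nuclei stayed unnamed. A class is named for the type its markers resemble, and each name should be read as type-like. The classes ranged from 6814 dentate granule nuclei to 31 choroid plexus nuclei. In all 15 classes named by their own markers the markers were higher than in other nuclei in every library, except for 1 of the 7 CA3 markers. The same markers named the clusters, so this does not check the names. Counts of each class were summed per library and given as UMIs per 1000000 UMIs of the class (CPM). With 1 library per genotype there is no replicate error. The spread of a class level over the 5 libraries is therefore a spread over genotypes, and each 95% interval in brackets covers counting error only.

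Mgll itself was not lower in the labelled classes. Its level was 493, 346, 430, 414 and 430 CPM in the astrocyte class, 91.8, 88.0, 118, 118 and 108 CPM in the dentate granule class, and 49.6, 52.2, 75.7, 81.6 and 67.3 CPM in CA1. A count over the whole gene can hold RNA from outside a deleted part and so checks nothing. The knockout libraries are therefore named by their labels only.

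The AMPA receptor genes span long loci of the mouse build GRCm38. Gria1 (ENSMUSG00000020524) lies at chr11:57011387-57330244 on the plus strand, Gria2 (ENSMUSG00000033981) at chr3:80681450-80802835 on the minus strand, Gria3 (ENSMUSG00000001986) at chrX:41400854-41678601 on the plus strand and Gria4 (ENSMUSG00000025892) at chr9:4417896-4796234 on the minus strand. Of the NMDA receptor genes, all on the minus strand, Grin1 (ENSMUSG00000026959) lies at chr2:25291181-25319187, Grin2a (ENSMUSG00000059003) at chr16:9567898-9995560 and Grin2b (ENSMUSG00000030209) at chr6:135713233-136173511. Grin2c (ENSMUSG00000020734) lies at chr11:115249169-115267243, Grin2d (ENSMUSG00000002771) at chr7:45831883-45878378 and Grin3a (ENSMUSG00000039579) at chr4:49661611-49845744. Spans ran from 18.1 kb for Grin2c to 460.3 kb for Grin2b. Ppp3r2 is counted on the same strand within Grin3a, and reads of the 2 genes may have been split between them. On the opposite strand, counted genes overlap Grin1, Grin2b and Grin2d.

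RefSeq start-site windows of GRCm38.p6, 250 bases before and 50 after the start, were matched for 5 of the 10 genes: Gria2, Gria4, Grin1, Grin2c and Grin2d. The windows of Gria2 (chr3:80802786-80803085), Grin2c (chr11:115267194-115267493) and Grin2d (chr7:45866632-45866931) are printed 5′ to 3′ on the minus strand, as the starts of 3 members whose nearest peaks are described below; the peaks listed for Grin2d reach only the 3′ edge of its window. Capitals mark letters of GGGCGG, the GC box, and of GGACAG, letters known from one arm of the site of the neuronal repressor REST, on either strand.
Gria2: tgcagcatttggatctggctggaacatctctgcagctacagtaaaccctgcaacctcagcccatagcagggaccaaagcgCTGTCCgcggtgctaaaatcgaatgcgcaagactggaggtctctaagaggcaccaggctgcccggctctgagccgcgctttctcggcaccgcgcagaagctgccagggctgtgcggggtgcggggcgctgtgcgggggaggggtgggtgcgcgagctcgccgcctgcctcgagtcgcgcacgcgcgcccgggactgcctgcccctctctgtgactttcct
Grin2c: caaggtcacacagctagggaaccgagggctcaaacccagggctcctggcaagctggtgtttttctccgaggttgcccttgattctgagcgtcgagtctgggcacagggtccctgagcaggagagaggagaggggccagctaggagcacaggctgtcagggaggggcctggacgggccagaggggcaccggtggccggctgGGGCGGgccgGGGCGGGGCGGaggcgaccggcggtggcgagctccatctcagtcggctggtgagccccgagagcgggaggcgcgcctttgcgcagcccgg
Grin2d: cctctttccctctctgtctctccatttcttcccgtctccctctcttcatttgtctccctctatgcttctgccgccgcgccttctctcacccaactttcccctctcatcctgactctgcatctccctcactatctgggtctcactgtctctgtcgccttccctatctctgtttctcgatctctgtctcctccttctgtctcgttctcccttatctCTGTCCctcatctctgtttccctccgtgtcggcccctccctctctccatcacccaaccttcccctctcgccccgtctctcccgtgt
Grin2c holds 3 matches of GGGCGG, of which 2 overlap, and Gria2 and Grin2d hold 1 match of GGACAG each. Grin1, at chr2:25319138-25319437, holds 1 match of each, and Gria4 holds neither. Of 32851 RefSeq windows of the same length, 35.7% hold GGGCGG and 22.2% hold GGACAG, so both are common letters. CAGCACC, from the other arm of the REST site, and TATAAA were in none of the 5 windows and in 7.14% and 13.6% of all windows. G and C made up 65.7% of the Gria2 window, 70% of the Grin2c window and 56% of the Grin2d window, against a median of 52.7%. The RefSeq start of Grin2d lies inside the annotated gene, not at its 5′ end.

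Among the AMPA receptor genes, Gria1 was highest in CA1 pyramidal and Lhx6-lineage nuclei. The Lhx6 lineage holds interneurons such as the Sst and Pvalb types. The Gria1 level in CA1 was 3412, 3385, 3428, 3221 and 3513 CPM. In the Lhx6 class it was 3107, 2768, 3077, 3134 and 3590 CPM, so that the ranges of both classes overlap and the Lhx6 class led in the library labelled global MAGL-KO. CA3 and dentate granule nuclei followed with medians over libraries of 2708 and 2528 CPM. Upper and deep cortical nuclei, which lie outside the hippocampus proper, had medians of only 655 and 628 CPM, and the lowest CA1 library was above every cortical one.

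Gria2 was high in all neuron classes and also outside them. Its level in CA1 was 2751, 2512, 2554, 2476 and 2440 CPM, and in CA3 it was 2635, 2469, 2607, 2422 and 2485 CPM. These ranges overlap, and CA3 led in 2 libraries. The Lhx6 lineage had 1022, 1026, 1079, 1031 and 1018 CPM, below every library of the dentate granule, CA and cortical classes. As a share of the UMIs of the 4 AMPA receptor genes, Gria2 made up a median of 35.7% in CA1, 38.3% in the dentate granule class, 27.0% in the Adarb2 lineage, which holds the Vip and Cck interneuron types, and 13.2% in the Lhx6 lineage. That share lay between 11.6% and 13.6% in all libraries of the Lhx6 class and between 34.4% and 37.0% in those of CA1, so the classes did not overlap.

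Gria3, an X-linked gene, was high in deep cortical nuclei (1243, 1224, 1113, 1128 and 1193 CPM), in the Lhx6 lineage (1114, 1190, 1165, 1113 and 1323 CPM) and in CA1 (median 1043 CPM). The deep cortical and Lhx6 ranges overlap. The Adarb2 lineage had 272, 217, 179, 255 and 188 CPM, the lowest of the 10 larger neuron classes in every library, and so the 2 interneuron lineages stood at opposite ends for this gene.

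Gria4 set the classes apart most sharply of the AMPA receptor genes. It read 2936, 2712, 2637, 2519 and 2845 CPM in the Lhx6 lineage, and 1852, 1570, 1329, 1459 and 1587 CPM in the Adarb2 lineage, with no overlap. The CA1 level was 145, 160, 125, 136 and 145 CPM, the lowest of the neuron classes with over 100 nuclei. Gria4 thus took a median of 33.1% of the AMPA receptor UMIs in the Lhx6 lineage and 2.00% in CA1. Upper cortical nuclei had 1619, 1236, 1196, 952 and 1455 CPM, and the other excitatory nuclei a median of 1119 CPM. Both were well above the classes named CA1, CA3, dentate granule and subiculum. Clusters of the other excitatory class scored highest for CA1, the subiculum or upper cortex but did not meet the naming rules. That class may therefore hold hippocampal nuclei.

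**Figure D1:**
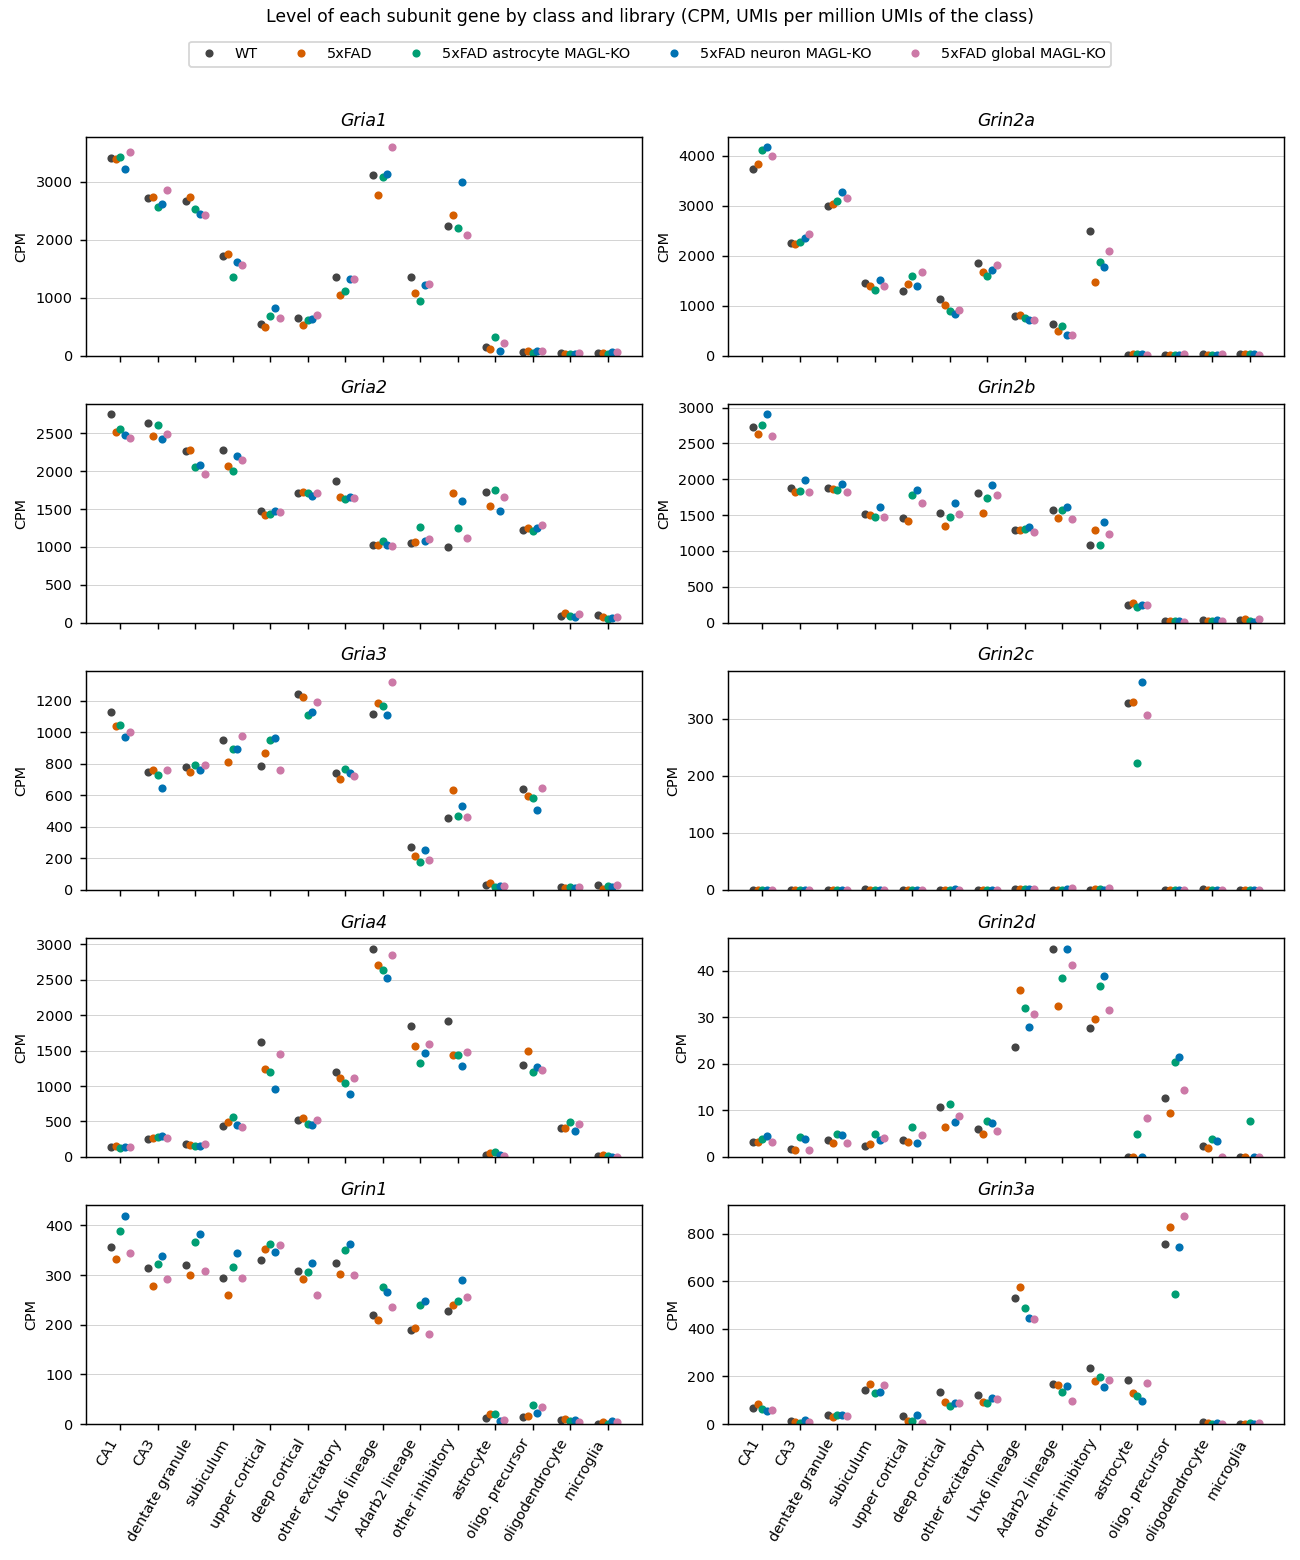
Level of the 10 subunit genes by class, in CPM (UMIs per 1000000 UMIs of the class) on an axis from 0, with 1 point per library and the libraries told apart by colour. Gria4 stands highest in the Lhx6 lineage, Grin2a and Grin2b in CA1, Grin2c in the astrocyte class and Grin3a in oligodendrocyte precursors, in all 5 libraries; the axis range differs between genes.

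Grin1, the obligatory NMDA receptor subunit gene, had class medians between 193 and 356 CPM over the 10 larger neuron classes. Its level was 356, 333, 389, 419 and 345 CPM in CA1, 320, 301, 367, 383 and 308 CPM in the dentate granule class and 190, 193, 239, 248 and 182 CPM in the Adarb2 lineage. Upper cortical nuclei, with 330, 353, 363, 347 and 360 CPM, overlapped CA1 and led in 2 libraries.

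Grin2a and Grin2b, which encode the main glutamate-binding subunits of the forebrain, were both highest in CA1 in 5 of 5 libraries, without overlap with the next class. Grin2a read 3726, 3829, 4114, 4165 and 3999 CPM in CA1 and 2988, 3026, 3083, 3274 and 3150 CPM in the dentate granule class. In the Lhx6 lineage it read 796, 808, 741, 706 and 714 CPM. Grin2b read 2726, 2635, 2761, 2904 and 2607 CPM in CA1, 1877, 1861, 1851, 1928 and 1827 CPM in the dentate granule class and 1290, 1293, 1301, 1328 and 1261 CPM in the Lhx6 lineage. Class medians over the 10 larger neuron classes ran from 499 to 3999 CPM for Grin2a and from 1231 to 2726 CPM for Grin2b.

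The balance of both genes differed between the classes. Grin2a made up 61.4% [61.1, 61.8], 61.9%, 62.5%, 62.9% and 63.3% of the Grin2a and Grin2b UMIs in the dentate granule class. Medians were 59.2% in CA1, 55.2% in CA3, 48.4% in the subiculum, 37.6% in deep cortical nuclei, 36.3% in the Lhx6 lineage and 25.5% in the Adarb2 lineage. The dentate granule and CA1 ranges did not overlap, nor did those of CA1 and CA3 or of CA3 and the subiculum, whereas deep cortical nuclei (33.2% to 43.1%) and the Lhx6 lineage (34.7% to 38.5%) did. The other inhibitory nuclei, which fitted neither lineage, ranged from 53.1% to 69.7%. With fewer doublets removed, an alternative added after seeing the data, the Lhx6 share was 48.8%. That setting also named clusters rich in nuclei with both Xist and Y-linked UMIs, which the main setting left unnamed.

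**Figure D2:**
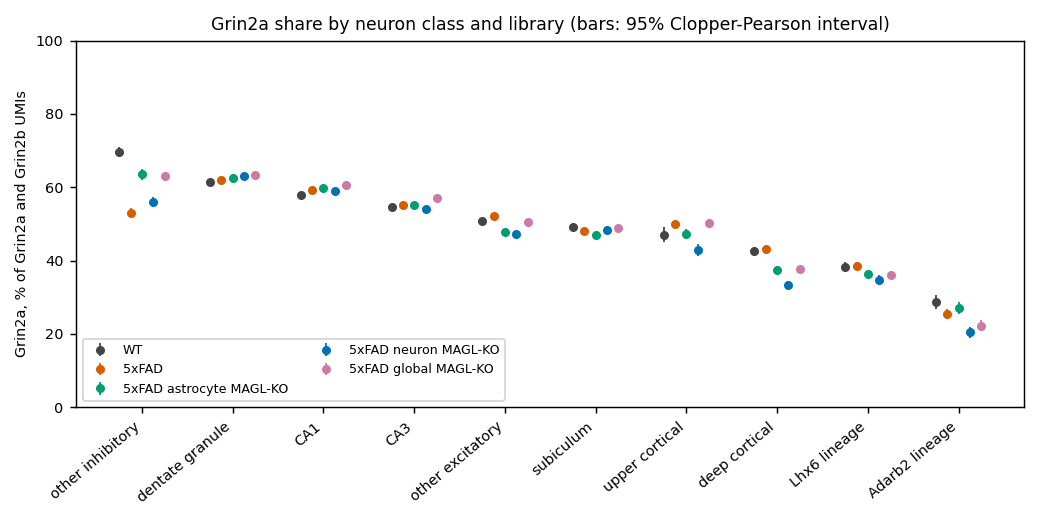
Share of Grin2a among Grin2a and Grin2b UMIs, in percent, by neuron class and library; bars are 95% Clopper-Pearson intervals of counting error. The dentate granule class has a median of 62.5% and the Adarb2 lineage one of 25.5%, and the other inhibitory nuclei range from 53.1% to 69.7%.

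The scarcer NMDA receptor genes were each highest in a different class. Grin2c read 328, 329, 222, 365 and 306 CPM in the astrocyte class from 314 UMIs in all. Vascular nuclei came second with 24.0, 94.5, 22.6, 113 and 22.4 CPM, but from 12 UMIs in all, and choroid plexus nuclei ranged from 0 to 104 CPM, from 9 UMIs. It was at 0 UMIs in oligodendrocyte precursors and microglia and between 1.22 and 1.89 CPM in the Lhx6 lineage. Grin2d, a subunit gene known from interneurons, read 44.7, 32.4, 38.4, 44.7 and 41.3 CPM in the Adarb2 lineage and 23.6, 35.8, 32.1, 28.0 and 30.7 CPM in the Lhx6 lineage, ranges that overlap, against 3.31, 3.23, 3.83, 4.48 and 3.16 CPM in CA1. Grin3a read 757, 829, 545, 745 and 874 CPM in oligodendrocyte precursors and 528, 575, 488, 445 and 441 CPM in the Lhx6 lineage. The precursors were higher in 5 of 5 libraries, although their lowest library lay below the highest Lhx6 library. CA1 (median 63.5 CPM), the dentate granule class (36.3 CPM) and CA3 (9.70 CPM) had little Grin3a.

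Between genes, levels were compared per kb of gene span, since nuclear RNA comes largely from introns. In CA1 the mean level was 21.0 CPM per kb for Gria2, 13.2 for Grin1, 10.6 for Gria1, 9.28 for Grin2a, 5.92 for Grin2b and 3.74 for Gria3. On the same scale Gria4 was at 0.376 and Grin3a at 0.357 CPM per kb. In the Lhx6 lineage Gria1 (9.83), Grin1 (8.63), Gria2 (8.53) and Gria4 (7.22 CPM per kb) lay close together. In the astrocyte class Grin2c (17.2) and Gria2 (13.4 CPM per kb) stood above all other members, of which Grin3a came next with 0.765. Short genes such as Grin1 and Grin2c thus rank higher per kb than by CPM.

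Free RNA from broken neurons reaches every droplet, so glial levels were set beside 12 neuronal genes measured the same way. Each was expressed as a percent of its level over all neurons in the same library. In the astrocyte class, where the neuronal genes had a median of 4.10% and a highest value of 62.2%, Gria2 lay between 75.3% and 90.04% of the neuronal level, Grin3a between 110% and 195%, and Grin2c, which neurons hardly hold, far above it. Grin2b was at 12.1% to 15.8% and Grin2a at 0.264% to 1.08%, although both are abundant in neurons. Grin2a made up 2.56% to 10.0% of the pair's UMIs in astrocyte nuclei, below all libraries of the 10 larger neuron classes.

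In oligodendrocyte precursors Gria4 read 1303, 1489, 1199, 1265 and 1228 CPM, or 183% to 225% of the neuronal level. Grin3a was at 616% to 980%. Gria2 (1222, 1252, 1208, 1245 and 1293 CPM, a median of 62.7% of the neuronal level) and Gria3 (median 72.6%) were below the highest of the 12 neuronal genes, Grik4 at 151%, and far above their median of 9.37%. Grin1 had a median of 6.36%, Grin2b of 1.17% and Grin2a of 0.593%. In mature oligodendrocytes Gria4 was the only member above the neuronal genes in all 5 libraries, with 403, 405, 488, 370 and 459 CPM. It was at 57.9% to 76.1% of the neuronal level, against a highest neuronal gene of 44.8%. Grin2d and Grin2c were above them in 1 library each, from 3 UMIs and 1 UMI. In microglia no member was, but there the highest of the 12 genes was Dgkz, at a median of 229% of the neuronal level, so the bar was high; with Dgkz left out the total below did not change. In total 6 pairs of a member and a glial class were above all 12 genes in every library, and 7 with Grik4 left out.

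Chromatin accessibility at the start sites was read as transposase cut sites in the nearest listed peak within 500 bases, per 1000000 cut sites of the class. Peaks were listed for each library on its own and were between 647 and 922 bases long. The Gria2 peak, which overlaps the window printed above, had a median of 41.0 cut sites on that scale in the astrocyte class (7.62 to 52.1), 48.97 in oligodendrocyte precursors, 40.3 in the dentate granule class and 34.3 in CA1. It held 0 cut sites in microglia. The Grin2c peak was listed in 3 of the 5 libraries (wild type and those labelled astrocyte and global MAGL-KO), with 41.0, 32.8 and 11.4 cut sites on that scale in the astrocyte class and 1.88 to 2.56 in the dentate granule class. The Grin3a peak was highest in oligodendrocyte precursors (38.6 to 65.4, median 52.3) and had a median of 9.27 in the dentate granule class. The Gria4 peak had medians of 36.7 in oligodendrocyte precursors, 25.3 in the Lhx6 lineage and 12.9 in CA1.

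By class median, peak and RNA did not rank the classes alike for Gria2 and Gria4, but peak ranges over libraries overlapped. The Gria4 peak ran from 17.7 to 39.4 in oligodendrocyte precursors and from 19.0 to 39.0 in the Lhx6 lineage. That of Gria2 ran from 32.2 to 56.3 in the precursors and from 39.3 to 41.8 in the dentate granule class. For Grin2d the median order of the precursors and the Lhx6 lineage differed between peak and RNA. The peak nearest to the Grin2d start had 45.3 to 84.6 cut sites on that scale in microglia, from 207 cut sites in all, and 45.1 to 69.2 in oligodendrocyte precursors, where its RNA read 12.7, 9.53, 20.4, 21.5 and 14.3 CPM, or 127% to 244% of the neuronal level. The Lhx6 lineage had 24.8 to 48.1 and CA1 7.08 to 10.4. Microglia held 2 Grin2d UMIs over the 5 libraries, both in the library labelled astrocyte MAGL-KO (7.75 CPM). At this depth a level as low as that of CA1 or the dentate granule class could not be told from 0 in microglia, so the RNA of these classes was not ranked. The listed peaks lie 15 to 31 bases from the RefSeq start. In Grin2b, 38.1 cut sites on that scale in the astrocyte class (median) stood beside 34.8 in the dentate granule class, while astrocyte RNA was at 12.1% to 15.8% of the neuronal level.

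**Figure D3:**
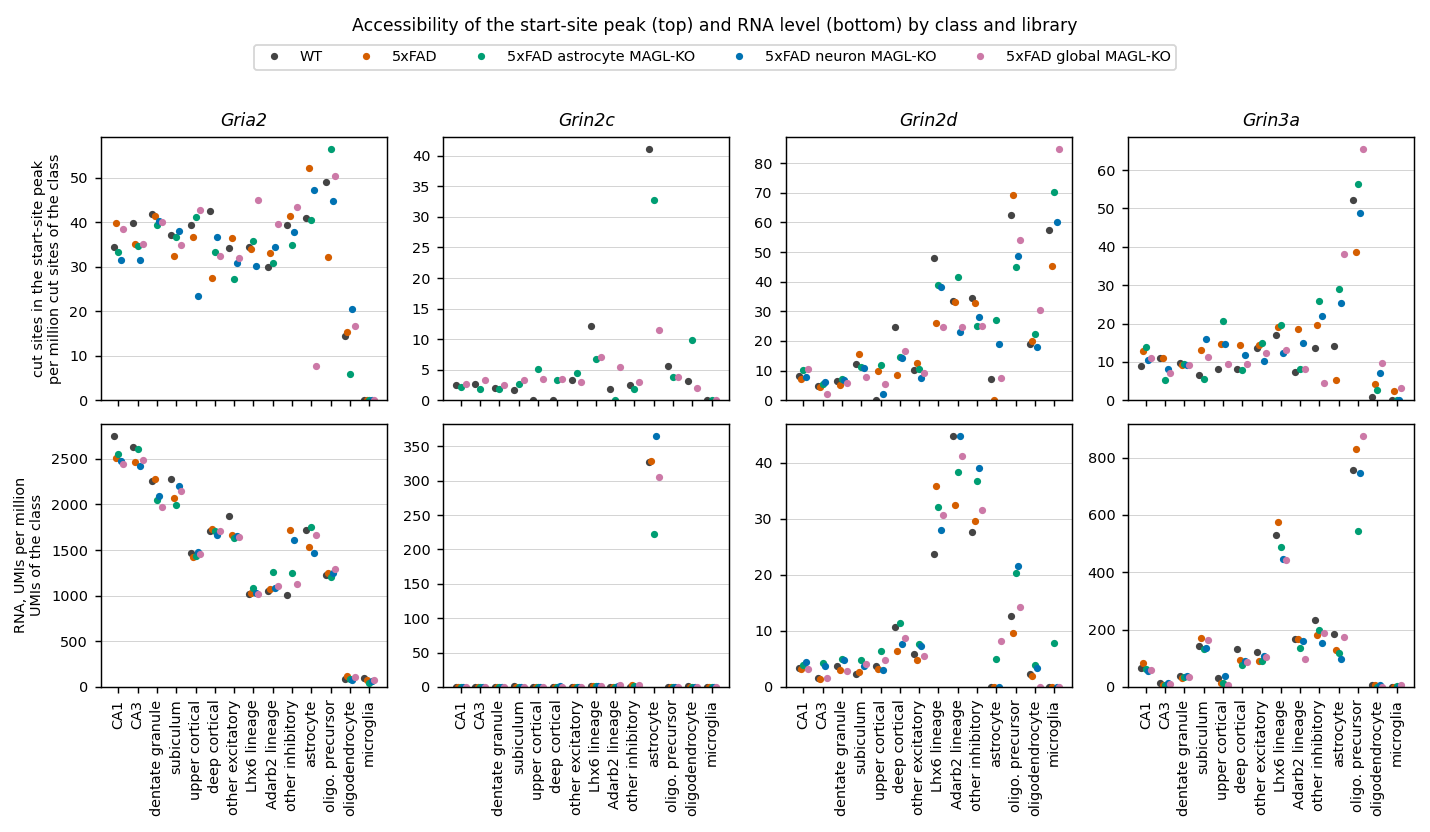
Cut sites in the start-site peak per 1000000 cut sites of the class (top) and RNA level in CPM (bottom) for Gria2, Grin2c, Grin2d and Grin3a, with 1 point per library and class. For Grin2d the microglia class reaches 45.3 to 84.6 cut sites on that scale, with RNA at 0 in 4 libraries and 7.75 CPM in 1, while among the classes drawn Grin2c and Grin3a have the highest median of peak and RNA in the same class.

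The genes whose class pattern was most like that of a member were named over 15 classes and 11853 genes, by the Pearson correlation of log2(CPM + 5) of class means. This is a description across classes of the same libraries, and some of these genes were among the class markers. Grin2c was most like Gja1, the astrocyte gap junction gene (r = 0.992), and Gli3 (r = 0.991). Grin2b was most like Camk2a (r = 0.958), the kinase that binds its product, and Rbfox3 (r = 0.9499). Gria3 was most like Rbfox1 (r = 0.972) and Grm5 (r = 0.952), Grin2d like Npas1 (r = 0.919) and Npffr1 (r = 0.879), and Gria2 like Apba2 (r = 0.959) and Astn1 (r = 0.958). Morc2b led for both Grin1 (r = 0.989) and Gria1 (r = 0.955), followed by Ttll11 (r = 0.984) and Clvs1 (r = 0.945). Grin2a was most like Kcnab2 (r = 0.980) and Olfr239 (r = 0.979), Gria4 like Pcdhb22 (r = 0.894) and Scg5 (r = 0.888), and Grin3a like Armcx4 (r = 0.886) and Ebf4 (r = 0.858).

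Nuclei of both sexes could be compared within a library. For X-linked Gria3, nuclei that held Xist differed from those that held Y-linked transcripts by a median log2 ratio of 0.03 over 50 class and library pairs. Grin1 had a median of 0.08 and was higher in nuclei with Xist in 36 of 50 pairs. No other member with enough UMIs had a median beyond 0.08 in either direction.

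The first contrast of the design sets 5xFAD beside wild type. Most members lay close together in both libraries. Over the neuron classes 4 of 90 member and class pairs with enough UMIs were higher by at least 1.2-fold in 5xFAD, and 18 were lower, or 4.44% and 20%. Over all genes 17.9% of pairs were higher and 20.2% lower. The count of lower pairs was therefore near the background. With fewer doublets removed, 14 pairs in all passed in place of 22. The count was also 14 with each nucleus given to the class of its highest marker score. That setting has no other excitatory or other inhibitory class. In the main setting these held 0 higher and 3 lower pairs, and 2 higher and 3 lower pairs, so the counts cover unlike classes. The share of all pairs in the alternative settings is not given here.

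In the dentate granule class and CA1 Grin3a was the only member past 1.2-fold, 1 of 9 in each, beside 10.1% of all genes higher and 15.3% lower in the former and 14.3% and 16.0% in CA1. It was higher in CA1 of the 5xFAD library (83.6 against 67.6 CPM, log2 ratio 0.31 [0.15, 0.47]) and lower in the dentate granule class (31.7 against 38.6 CPM, log2 ratio -0.28 [-0.46, -0.10]). Neither call held in nuclei with Y-linked UMIs only (0.17 and -0.01) or by highest marker score (0.20 and -0.04). In CA3 it was also lower (6.65 against 15.0 CPM, log2 ratio -1.17 [-1.76, -0.61], from 40 and 82 UMIs). Gria1, Gria2, Grin2a and Grin2b all lay within 0.13 on the log2 scale in the dentate granule class and CA1.

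In the smaller neuron classes more of all genes passed 1.2-fold as well, such as 21.7% higher and 25.8% lower in the Adarb2 lineage. There 4 of 9 members were lower: Gria1, Gria3, Grin2a and Grin2d. In upper cortical nuclei 2 of 8 were lower, Gria4 and Grin3a, beside 29.0% of all genes. Grin2d was at 35.8 CPM in the Lhx6 lineage of 5xFAD against 23.6 CPM in wild type (log2 ratio 0.60 [0.13, 1.08], from 115 and 58 UMIs), and the log2 ratio was 0.19 with lighter doublet removal. Gria1 was lower in deep cortical nuclei (533 against 643 CPM, log2 ratio -0.27, but -0.07 by highest marker score) and in the other excitatory nuclei (1042 against 1353 CPM, log2 ratio -0.38, but -0.22 with lighter doublet removal, -0.17 in nuclei with Y-linked UMIs only and -0.71 in those with Xist only). The other excitatory class pools 5 clusters in unequal parts: 1 of them drew 30.8% of its nuclei from 5xFAD and 11.6% from wild type, another 12.02% and 14.7%. The interval of Grin2d in deep cortical nuclei spanned 0 (log2 ratio -0.74 [-1.73, 0.22]). In the other inhibitory nuclei Gria2 was higher by 0.77 and Grin2a lower, with a log2 ratio of -0.76. With fewer doublets removed these were 0.13 and -0.34. This class pools 2 clusters: 5xFAD gave 31.8% and wild type 5.71% of the nuclei of 1, against 20.3% and 20.0% of the other. The part of cluster make-up in these values was not tested.

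**Figure D4:**
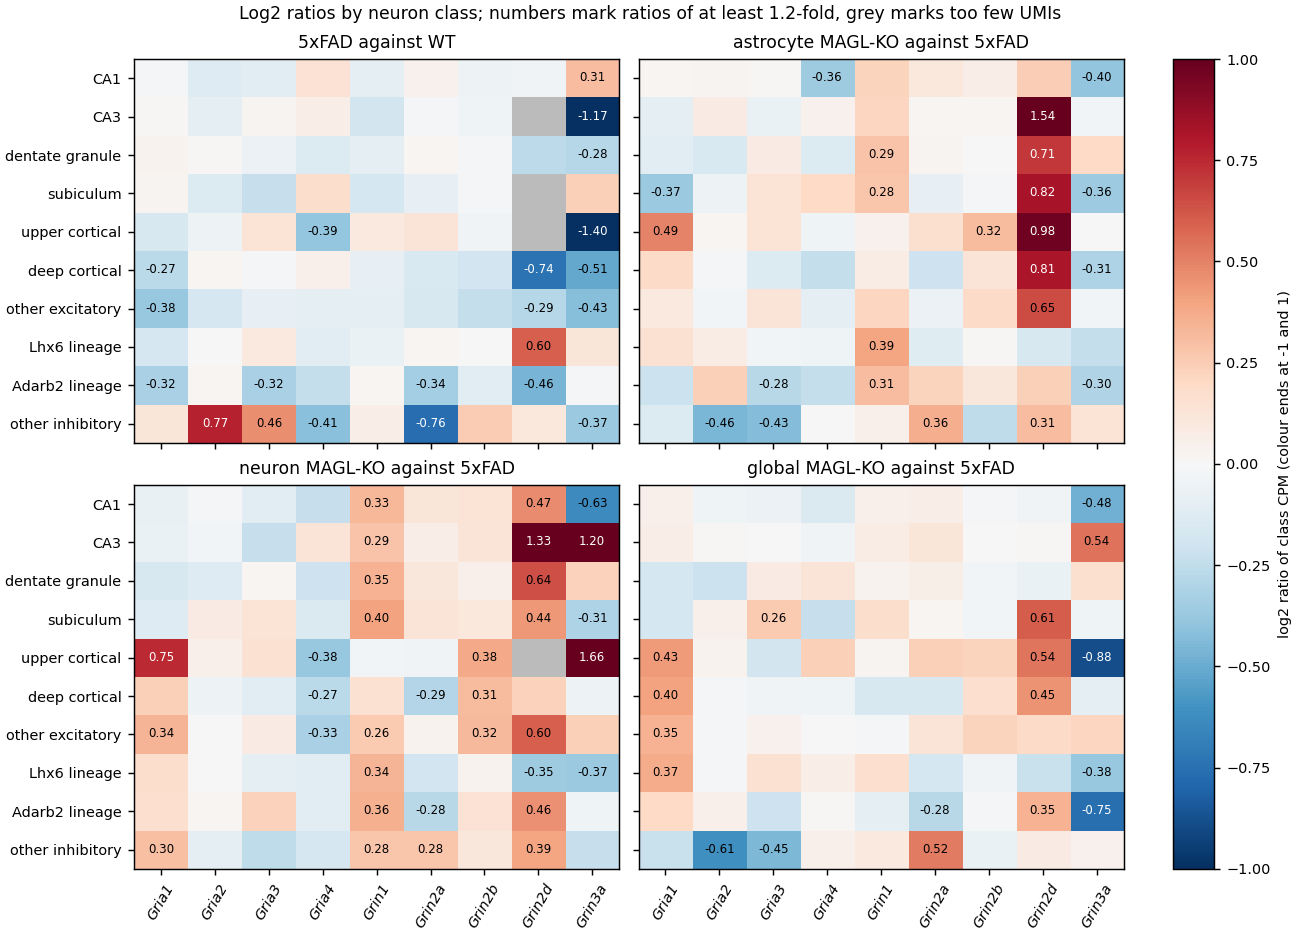
Log2 ratios of class CPM for the members in 10 neuron classes and the 4 contrasts, with numbers where a ratio reached 1.2-fold and grey where UMIs were too few. Columns of Grin1 and Grin2d are mostly above 0, not always by 1.2-fold, in the astrocyte-labelled and neuron-labelled MAGL-KO libraries. The class medians of all genes are also above 0 there, at 0.11 to 0.22. Gria2 and Grin2b differ little in most classes. The 3 knockout contrasts share the 5xFAD library.

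The 3 knockout libraries were each set beside the same 5xFAD library, so a chance deviation of that library enters all 3 contrasts. Before the members, the scale needs stating: over all genes of each of the 10 larger neuron classes the median log2 ratio was 0.14 to 0.21 in the library labelled astrocyte MAGL-KO and 0.11 to 0.22 in that labelled neuron MAGL-KO. It was at most 0.06 in that labelled global MAGL-KO. The small Cajal-Retzius class, which adds a few pairs to the counts below, had -0.04 and -0.03 in the first 2.

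In the library labelled astrocyte MAGL-KO, 15 of 93 pairs were higher by at least 1.2-fold and 9 lower, where 41.2% of all gene and class pairs were higher and 10.2% lower. Relative to the median gene, by size factors, the split was 8 higher and 25 lower. In the library labelled neuron MAGL-KO, 25 of 92 pairs were higher and 9 lower, where 38.8% and 12.1% of all pairs were. Relative to the median gene the split was 12 and 20. The share of all pairs on that scale is not given here, so both splits relative to the median gene stand without a background. The library labelled global MAGL-KO had 13 of 93 pairs higher and 7 lower, with 23.0% and 16.0% over all pairs. In all 3 contrasts the share of members that were higher lay below that of all genes, and for the first 2 the direction of the split depends on the scaling. Members and all genes also differ in span, since all members but Grin1, Grin2c and Grin2d span over 100 kb. In the dentate granule class 16.5%, 15.5% and 19.0% of genes over 200 kb were higher in the 3 contrasts. Of genes under 10 kb, 65.4%, 58.5% and 25.8% were. The part of gene span in these shares and splits was not tested. For the third contrast, 13 pairs in all in place of 20 passed with fewer doublets removed or by highest marker score. The latter setting lacks the other excitatory class, with 1 higher and 0 lower of the 20. It also lacks the other inhibitory class, with 1 higher and 2 lower. The share of all pairs in these settings is not given here.

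Grin1 was above 0 in 10 of 10 neuron classes of the library labelled astrocyte MAGL-KO and in 9 of 10 of that labelled neuron MAGL-KO. In the dentate granule class it read 367 and 383 CPM there, against 301 CPM in 5xFAD and 320 CPM in wild type. The log2 ratios were 0.29 [0.23, 0.34] and 0.35 [0.29, 0.40], and relative to the median gene 0.10 and 0.21. In CA1 they were 0.22 [0.15, 0.30] and 0.33 [0.25, 0.41], or 0.07 and 0.19 relative to the median gene. The Lhx6 lineage had 0.39 and 0.34, or 0.23 and 0.22. In nuclei with Y-linked UMIs only, the CA1 log2 ratios were 0.13 and 0.14 and the dentate granule ones 0.14 and 0.26. For the library labelled global MAGL-KO Grin1 stood at 0.03 in the dentate granule class and 0.05 in CA1, and both intervals spanned 0. Grin2b was above 0 in 10 of 10 neuron classes of the library labelled neuron MAGL-KO, from 0.04 in the Lhx6 lineage to 0.38 [0.30, 0.46] in upper cortical nuclei, and in 7 of 10 of that labelled astrocyte MAGL-KO. Relative to the median gene it stood at 0.23 in upper cortical, 0.16 in deep cortical and 0.15 in other excitatory nuclei, the 3 classes where it passed 1.2-fold, and at -0.09 in the dentate granule class and 0.00 in CA1.

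Grin2d, at a far lower level, was above 0 in 9 of 10 neuron classes with enough UMIs of the library labelled astrocyte MAGL-KO and in 8 of 9 of that labelled neuron MAGL-KO. The exception in both was the Lhx6 lineage, where it read 32.1 and 28.0 CPM against 35.8 CPM in 5xFAD (log2 ratios -0.16 [-0.56, 0.24] and -0.35 [-0.80, 0.08]) while Grin1 was higher. With lighter doublet removal these were 0.21 and -0.05. In the dentate granule class it read 4.99 CPM in the library labelled astrocyte MAGL-KO and 4.76 CPM in that labelled neuron MAGL-KO, against 3.06 CPM in 5xFAD and 3.66 CPM in wild type. The log2 ratios were 0.71 [0.15, 1.28] from 78 and 43 UMIs and 0.64 [0.08, 1.22] from 75 and 43 UMIs. Relative to the median gene they were 0.52 and 0.50. In nuclei with Y-linked transcripts alone the second was -0.54. CA3 had log2 ratios of 1.54 [0.38, 2.83] and 1.34 [0.14, 2.65], the first from only 24 and 9 UMIs. The library labelled global MAGL-KO read 2.92 CPM in the dentate granule class, a log2 ratio of -0.07 [-0.66, 0.54].

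Grin1 and Grin2d are also the 2 shortest members that neurons express, and ratios moved with gene span in these libraries. Over 10 neuron classes the median log2 ratio of all genes under 10 kb was 0.44 in the library labelled astrocyte MAGL-KO, against 0.22 for 10 to 50 kb, 0.06 for 50 to 100 kb, 0.01 for 100 to 200 kb and -0.05 above 200 kb. The library labelled neuron MAGL-KO gave 0.41, 0.18, 0.02, 0.01 and -0.04. For the library labelled global MAGL-KO all 5 medians were between 0.01 and 0.05, and for 5xFAD against wild type between -0.02 and 0.01. Grin1 (28.0 kb) and Grin2d (46.5 kb) fall in the range from 10 to 50 kb, where the dentate granule medians were 0.21 and 0.15. The remaining members that neurons express span over 100 kb. The part of gene span in the values of Grin1, Grin2d and the longer members was not tested.

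**Figure D5:**
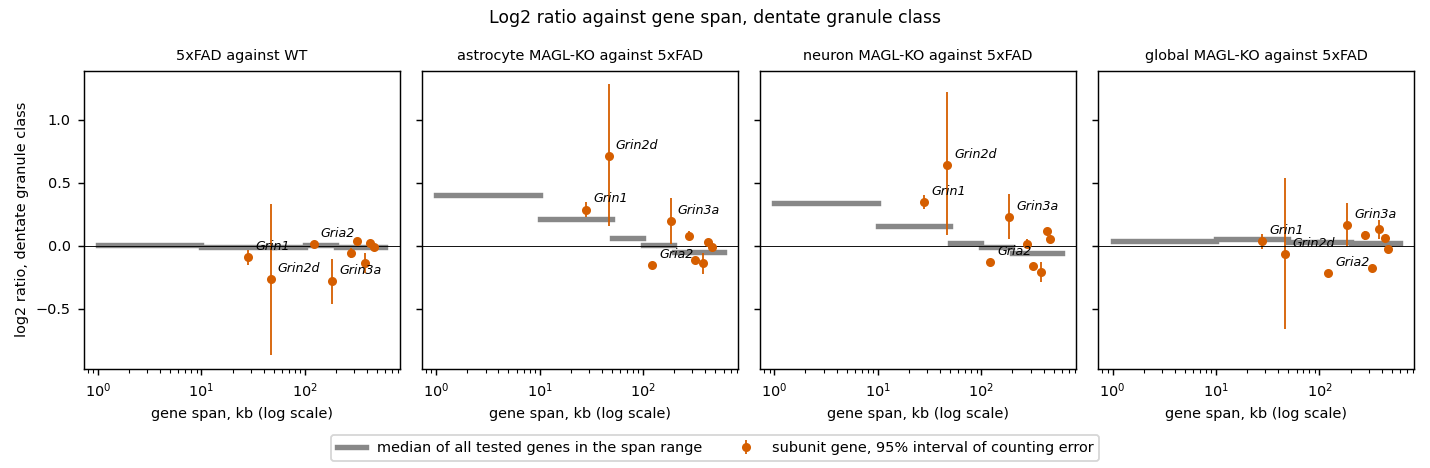
Log2 ratio of each member in the dentate granule class against its gene span in kb (log axis), for the 4 contrasts, with 95% intervals of counting error; grey bars are medians of all tested genes in a span range. In the astrocyte-labelled and neuron-labelled MAGL-KO libraries the grey bars fall from short to long genes and Grin1 lies above 0 with them, while in the other 2 contrasts the bars stay near 0.

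Grin3a was lower in CA1 in each knockout library. It read 63.5, 53.9 and 59.99 CPM there, against 83.6 CPM in 5xFAD and 67.6 CPM in wild type. The log2 ratios were -0.40 [-0.57, -0.23], -0.63 [-0.83, -0.44] and -0.48 [-0.64, -0.32]. All 3 rest on the same 5xFAD value, the highest of the 5 libraries, and by highest marker score they were -0.24, -0.03 and -0.28. In CA3 the same libraries read 6.53, 15.3 and 9.70 CPM against 6.65 CPM in 5xFAD, which rests on 40 UMIs. In upper cortical nuclei they read 12.1, 38.3 and 6.60 CPM against 12.2 CPM in 5xFAD and 32.1 CPM in wild type, from 14 to 45 UMIs. Grin3a was thus higher in the library labelled neuron MAGL-KO there (log2 ratio 1.66 [0.99, 2.31], but 0.12 by highest marker score), and the value of the global label, -0.88 [-1.86, 0.01], was 0.01 by highest marker score. In the Lhx6 lineage they read 488, 445 and 441 CPM against 575 CPM, with log2 ratios of -0.24, -0.37 and -0.38 [-0.48, -0.29]; the last was -0.11 with lighter doublet removal. In oligodendrocyte precursors Grin3a was lower in the library labelled astrocyte MAGL-KO (545 against 829 CPM, log2 ratio -0.61 [-0.84, -0.37], but -0.26 in nuclei with Xist only).

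Gria4 was below 0 in 10 of 11 neuron classes of the library labelled neuron MAGL-KO (median log2 ratio -0.16) and in 9 of 11 of that labelled astrocyte MAGL-KO (-0.10), but above 0 in 7 of 11 of that labelled global MAGL-KO. In the first of these it passed 1.2-fold in upper cortical (951.5 against 1236 CPM, log2 ratio -0.38 [-0.48, -0.28]), deep cortical (-0.27) and other excitatory nuclei (-0.33). Over the alternative settings the deep cortical value ran from -0.59 to -0.15, so it did not always reach 1.2-fold. The other excitatory value was 0.185 in nuclei with Y-linked UMIs only. The clusters pooled in this class were uneven in this contrast as well. One cluster drew 12.02% of its nuclei from 5xFAD and 17.55% from the library labelled neuron MAGL-KO, and another drew 30.8% and 12.8%. The part of cluster make-up in this Gria4 value, and in that of Grin2b given above, was not tested. Gria1 in upper cortical nuclei read 685, 817 and 655 CPM in the knockout libraries against 487 CPM in 5xFAD, the lowest of the 5 libraries. The log2 ratios were 0.49, 0.75 [0.63, 0.87] and 0.43, and the second was 0.18 by highest marker score. In the Lhx6 lineage of the library labelled global MAGL-KO Gria1 was higher (3590 against 2768 CPM, log2 ratio 0.37 [0.34, 0.41], but 0.17 with lighter doublet removal). It was lower in the subiculum of the library labelled astrocyte MAGL-KO (1357 against 1754 CPM, log2 ratio -0.37 [-0.42, -0.32], and -0.55 relative to the median gene), but stood at -0.16 with lighter doublet removal. Gria4 in CA1 of that library stood at -0.36 [-0.48, -0.23] but at 0.37 when nuclei were assigned by highest marker score. Upper cortical nuclei numbered between 53 and 218 per library.

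In the astrocyte class, the class named in 1 of the labels, Grin2c read 222 CPM in the library labelled astrocyte MAGL-KO against 329 CPM in 5xFAD. The log2 ratio was -0.57 [-1.13, -0.02], from 45 and 79 UMIs, and -0.29 with lighter doublet removal. Those labelled neuron and global MAGL-KO had 0.15 [-0.39, 0.67] and -0.11 [-0.71, 0.48]. The signs of these 2 depended on the setting. With classes taken by highest marker score they were -0.31 and -1.49, and with lighter doublet removal both were 0.10, while the first was 0.67 in nuclei with Xist only. Gria1 was higher in the astrocyte class of the first library (311 against 117 CPM, log2 ratio 1.41 [0.75, 2.11], from 63 and 28 UMIs), but stood at -0.02 with lighter doublet removal and 0.26 by highest marker score. Grin2b there stood at -0.33 [-0.91, 0.24], and at 0.18 by highest marker score. In all, 1 of 6 members was higher and 2 lower, beside 30.5% and 30.2% of all genes. Gria2 in astrocytes stood at 0.19, -0.06 and 0.12, with all 3 intervals spanning 0. The class had between 27 and 70 nuclei per library. Of its sexed nuclei 3.45%, 10.3%, 0%, 8% and 4.17% held both Xist and Y-linked UMIs, a sign of doublets that was uneven between the libraries; its part in these values was not tested.

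A cluster of 1207 dentate granule nuclei, of which 97.8% came from the 3 knockout libraries, bears on the dentate granule values of those libraries. It made up 1.07%, 1.17%, 22.1%, 24.0% and 32.4% of the dentate granule nuclei. Within the knockout libraries its Gria1 level was 1764, 1617 and 1952 CPM, against 2743, 2712 and 2646 CPM in the other dentate granule nuclei. Gria2 read 1598, 1275 and 1442 CPM against 2183, 2349 and 2221 CPM. Grin3a was also lower, with 6.99, 7.85 and 16.1 CPM against 44.6, 46.6 and 44.9 CPM. Gria3 (998, 824 and 868 against 736, 739 and 758 CPM) and Gria4 (206, 166 and 228 against 142, 143 and 168 CPM) stood above the other nuclei in the cluster. Gria3 under the neuron and global labels (log2 ratios 0.16 and 0.20) and Gria4 under the neuron label (0.22) fell short of 1.2-fold. Grin2b differed by at most 0.08 on the log2 scale. Grin2a stood at -0.27, -0.11 and -0.24 in the cluster relative to the other dentate granule nuclei, and Grin1 at 0.25, 0.14 and 0.03.

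These are values of a cluster drawn from the same nuclei, although none of the members was used to draw it, and median UMIs per nucleus were close (9973, 13894 and 10390 in the cluster, 10470, 13847 and 10766 outside). Gria2 over the whole dentate granule class was below 0 in the 3 knockout libraries but short of 1.2-fold, with log2 ratios of -0.15, -0.13 and -0.21. Without the cluster, an alternative added after seeing the data, these were -0.07, 0.04 and -0.04. Grin1 stood at 0.23 and 0.31 in the astrocyte-labelled and neuron-labelled MAGL-KO libraries without it. The first no longer reached 1.2-fold, a log2 ratio of 0.263.

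Lists of partner genes gave context. Of 19 AMPA receptor auxiliary and assembly genes, 17 or 18 had enough UMIs in the dentate granule class. There 3 were higher and 1 lower in 5xFAD against wild type, with 10.1% and 15.3% of all genes. The knockout libraries, in the order astrocyte, neuron and global, had 4 higher and 1 lower (42.0% and 6.89% of all genes), 5 and 2 (36.4% and 8.71%) and 4 and 1 (21.1% and 11.5%). The highest log2 ratios in 5xFAD were those of Cacng5 (0.38) and Cnih2 (0.35) and the lowest those of Cacng3 (-0.28) and Cacng7 (-0.17). The Cacng genes of the list encode TARP subunits and Cnih2 a cornichon, both auxiliary subunits of AMPA receptors. In the library labelled astrocyte MAGL-KO, Shisa8 (1.02) and Cnih2 (0.49) were highest and Shisa9 (-0.29) and Cacng5 (-0.24) lowest. In those labelled neuron and global MAGL-KO, Shisa8 (3.497 and 2.31) and Gsg1l (0.84 and 0.66) led, and Cnih3 (-0.35 and -0.22) and Cacng5 (-0.29 and -0.98) were lowest. Shisa8 in 5xFAD rested on 8 UMIs.

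In CA1, 17 of the 19 genes had enough UMIs. In 5xFAD against wild type 4 were higher and 1 lower, with 14.3% and 16.0% of all genes. The knockout libraries had 2 higher and 3 lower (38.5% and 8.29% of all genes), 5 and 1 (37.6% and 9.72%) and 2 and 1 (18.4% and 12.7%). Cacng5 (0.39) and Cacng2 (0.38) were highest in 5xFAD, and Cacng3 (-0.29) and Cnih3 (-0.20) lowest. Cnih2 (0.73 and 0.76) and Nrn1 (0.30 and 0.63) led in the astrocyte-labelled and neuron-labelled MAGL-KO libraries, where Cacng2 was lowest (-0.66 and -0.38) with Gsg1l (-0.38) in the first and Shisa6 (-0.21) in the second. In that labelled global MAGL-KO, Shisa9 (0.33) and Porcn (0.27) were highest and Gsg1l (-0.30) and Cacng5 (-0.21) lowest.

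Of 8 clustering, trafficking and editing genes, none of 7 with enough UMIs reached 1.2-fold in the dentate granule class of 5xFAD, beside 10.1% of all genes higher and 15.3% lower. There Adarb1 (0.17) and Nptx1 (0.07) were highest and Nptx2 (-0.22) and Pick1 (-0.06) lowest. In the knockout libraries 2, 3 and 3 of 8 were higher, beside 42.0%, 36.4% and 21.1% of all genes, and 1 was lower, Grip2 in that labelled global MAGL-KO (-0.47, from 10 UMIs in each library). Nptx2, an activity-regulated pentraxin that gathers AMPA receptors, led in each: its dentate granule level was 3.99, 3.41, 6.97, 19.9 and 10.2 CPM, and its log2 ratios were 1.03 [0.53, 1.55], 2.55 [2.11, 3.02] and 1.58 [1.12, 2.06]. Nptxr, its receptor, came second with 0.39, 0.64 and 0.39. The lowest were Adarb1, the enzyme that edits Gria2 RNA (-0.19 and -0.10), and Nsf (-0.12, -0.08 and -0.18). In CA1, 1 of 8 genes was higher in 5xFAD, beside 14.3% of all genes, and none was lower. It was Nptxr (0.31), followed by Pick1 (0.20), with Grip2 (-0.24) and Nsf (-0.07) lowest. In the knockout libraries 1, 5 and 1 of 8 were higher, beside 38.5%, 37.6% and 18.4% of all genes, and 0, 1 and 0 were lower, beside 8.29%, 9.72% and 12.7%. There, in the same order, the leading genes were Nptxr (0.30), Nptx2 (0.91) and Nptx1 (0.36), and the second places were Nptx2 (0.24), Nptx1 (0.65) and Nptx2 (0.21). The lowest were Grip2 (-0.25) and Adarb1 (-0.18) in the first, Adarb1 (-0.33 [-0.55, -0.11]) and Pick1 (0.02) in the second, and Pick1 (-0.22) and Nsf (0.01) in the third.

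Of 5 NMDA receptor partner and co-agonist genes, 3 had enough UMIs in both classes: Neto1, an auxiliary subunit, Srr, which makes D-serine, and Slc6a9, a glycine transporter. Neto1 in the dentate granule class was at 343, 340, 295, 244 and 295 CPM, with log2 ratios in the knockout libraries of -0.20, -0.48 [-0.54, -0.42] and -0.20. In the dentate granule class 0, 1, 1 and 0 of the 3 genes were higher over the 4 contrasts, beside 10.1%, 42.0%, 36.4% and 21.1% of all genes, and 0, 0, 1 and 1 were lower, beside 15.3%, 6.89%, 8.71% and 11.5%. In CA1 0, 1, 1 and 1 were higher, beside 14.3%, 38.5%, 37.6% and 18.4%, and 1, 0, 0 and 0 lower, beside 16.0%, 8.29%, 9.72% and 12.7%. Srr stayed between -0.06 and 0.10 in all contrasts of both classes. Slc6a9 in the dentate granule class stood at 0.18, 0.30, 0.34 and -0.31, with all intervals spanning 0. In CA1 Slc6a9 was lower in 5xFAD than in wild type (-0.75 [-1.44, -0.08], from 33 and 47 UMIs) and at 0.66, 0.64 and 0.76 in the knockout libraries, of which only the last interval, [0.11, 1.42], left out 0. Grin3b and Slc7a10 had at most 8 UMIs in any library of these 2 classes.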

How the data were processed

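RNA and open chromatin were measured together in single hippocampal nuclei (10x Multiome), with 1 library per genotype. Per the submitters' processing notes, the authors used Cell Ranger ARC 2.0.0, Seurat and the build mm10; the gene annotation and the order of steps are not given in the sources used here. The deposited matrices hold raw counts, per the file headers: UMIs per gene, and cut sites per peak listed for each library. No normalised values were used.

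A nucleus was kept if it had 500 or more genes detected and mitochondrial UMIs made up 5% or less. Nuclei with at least 2 UMIs both of Xist and of 4 Y-linked genes implied 22.3% to 32.4% doublets, 2 times their share of sexed nuclei. If all such nuclei are doublets this is the fewest possible, and it falls further short the more uneven the sexes are. Free RNA of the other sex can also give such nuclei, and nuclei with 1 UMI of the other sex were not counted as sexed. Both can make the implied share too high, and their part was not tested. The lowest implied share, 22.3%, was that of the library labelled neuron MAGL-KO, where Xist marked 83.4% of the nuclei whose sex could be called. The implied share was removed by the highest scrublet score among nuclei of at least the median depth. Removal may thus have been uneven between libraries. After removal 1.36% to 2.09% of sexed nuclei still held both, and up to 10.3% in the small astrocyte class. Pooled nuclei were clustered with scanpy 1.11.5 and leidenalg 0.10.2 (2000 variable genes, 40 components, 15 neighbours, resolution 1). Clusters were named from marker lists; the naming thresholds were set after seeing the data.

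UMIs were summed per class and library. Ratios needed at least 20 UMIs over both libraries and 5 in each, and 1.2-fold was the size named as higher or lower. Poisson, Clopper-Pearson and conditional binomial intervals (95%) cover counting error only. With 1 library per group no test was made. Gene spans came from the reference annotation for 32158 of 32285 genes. The scripts were tested on simulated data.

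All members are described; of each partner list the 2 highest and 2 lowest log2 ratios in CA1 and the dentate granule class are named, with counts. The genes most like a member are the 2 with the highest correlation. Members and lists were chosen with earlier results of these data known. Alternatives were other scaling, a pseudocount, no filter, other class assignment, nuclei of 1 sex, members kept in clustering, lighter doublet removal and leaving out 1 dentate granule cluster, the last 2 added after seeing the data. Clusters with over 10% of sexed nuclei holding both Xist and Y-linked UMIs stayed unnamed in the main setting. With lighter doublet removal this limit was dropped as well, so 2 things changed at once.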

Additional observations from a re-analysis of the deposited data

How the results depend on the processing

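No paired analysis was possible because there is only 1 library for a genotype. Of the alternative values for the counts, shares and class orders, 66 stayed within their limits and 6 moved. The number of member and class pairs past 1.2-fold between 5xFAD and wild type was 22, and 14 both with classes by highest marker score and with lighter doublet removal. Between the library labelled global MAGL-KO and 5xFAD it was 20, and 13 under both of these settings. By highest marker score there is no other excitatory or other inhibitory class, so those counts cover fewer classes. None of these alternative counts has the share of all pairs beside it. The Grin2a share in the Lhx6 lineage was 36.3%, against 44.18% by highest marker score and 48.75% with lighter doublet removal. Of the values of single members, 476 stayed, 104 moved and 11 reversed. The log2 ratio of Gria4 in CA1, astrocyte MAGL-KO label against 5xFAD, was 0.37 by highest marker score. In astrocytes of that contrast Gria1 was -0.023 with lighter doublet removal, and Grin2b was 0.18 both by highest marker score and by the mean over nuclei, and 0.52 in nuclei with Xist only. For the global MAGL-KO label, Grin3a in upper cortical nuclei was 0.0084 by highest marker score and 0.037 with members kept among the clustering genes. For the neuron MAGL-KO label, Grin1 in CA3 was -0.091 and Grin2d in the dentate granule class -0.54 in nuclei with Y-linked UMIs only, Gria4 in the other excitatory class was 0.185 in the same nuclei, and Grin2d in CA1 was -0.29 in nuclei with Xist only. The cause was not tested. Depth limits Grin2d and Grin2c most, with 2190 and 402 UMIs in all.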
